A study of Rattus norvegicus with 8 samples.

Results

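Solute carrier genes were taken from the authors' comparison of m6A regions between Mettl3-overexpressing and control cells, as every region whose gene name begins with Slc or Slco and a digit. This gave 28 of the 1967 deposited regions, in 27 genes of 17 families, and no Slco gene was among them. The 28 regions make up 1.42% of the tables. All 27 genes matched a RefSeq gene of assembly GRCr8 by gene ID, under the same symbol and on the same chromosome. One of them, Slc4a1ap, encodes kanadaptin, an adaptor named for its binding to an anion exchanger and not itself a transporter; it is kept by the rule and counted as a class of its own.

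Vascular smooth muscle cells in primary culture from rat were used, the contractile cells of the arterial wall. They overexpressed Mettl3, the catalytic subunit of the enzyme that writes N6-methyladenosine (m6A) on messenger RNA, or carried a vector as control. RNA fragments pulled down with an antibody against m6A (IP) were sequenced beside an unenriched input, with 2 libraries in each of the 4 groups. The sources used here do not name the way Mettl3 was delivered, the vector, the age and strain of the rats, or separate isolations for the 2 libraries of a group.

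Solute carriers are membrane proteins that move small molecules and ions across the plasma membrane or the membranes of organelles, mostly as exchangers, as cotransporters driven by ion gradients or as facilitated carriers. The family number follows sequence similarity and largely sets the substrate. In smooth muscle, the sodium/calcium exchanger Slc8a1 is known for its part in calcium control, and amino acid and sugar carriers supply growing cells. m6A is bound by reader proteins that act on the splicing, export, translation and decay of the RNA that carries it.

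The tables hold 1 fold, p-value and adjusted p for each region and no value per library, so neither a value per sample nor a replicate spread exists for any member in what was used. In their place the reads implied by each fold are given. They were read from the steps in which the folds come, as whole reads over both IP libraries of a condition, and are an inference from the tables. In the folds a vector read weighs 4.09 times an overexpression read. No source used here says whether the input libraries entered the folds, so a lower m6A signal is not separated from less of the RNA, and in such bulk samples fewer cells of a type and less RNA per cell cannot be told apart. The overexpressed gene, Mettl3, had 2 higher regions and 1 lower region in the authors' deposited table, all of which passed. Of 8 smooth muscle markers, Myocd and Cnn1 had a listed region, both lower and neither passing, and the 5 endothelial, 4 leukocyte and 4 adventitial fibroblast markers had none; the tables list changed regions only and so do not show which genes the cells express.

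In the authors' deposited table, 25 solute carrier regions in 24 genes were lower in Mettl3-overexpressing cells and 3 regions in 3 genes were higher. At an authors' adjusted p (FDR) under 0.05, 3 lower regions passed, in Slc16a14, Slc35c1 and Slc2a9, and no higher region did. Over all 1967 deposited regions, 11.3% were lower and passed, and 2.64% were higher and passed. The 3 passing lower regions are 10.7% of the 28 members, so the share that passed was near that of the tables as a whole. The share of lower regions, 89.3% of the members, also lay near the 86.9% of all deposited regions. The unadjusted p of every listed region is under 0.05, so such a p does not set a member apart from other listed regions.

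**Figure D1:**
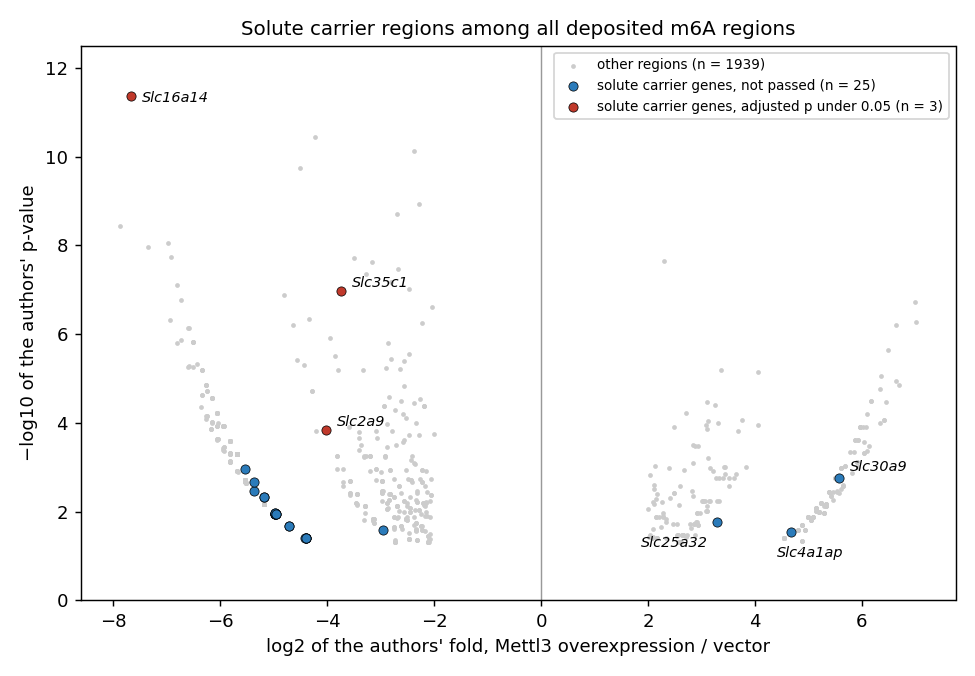
Each point is 1 deposited region, with the log2 of the authors' fold (overexpression over vector, negative for lower regions) on the x axis and the −log10 of the authors' p-value on the y axis; grey points are the 1939 other regions and coloured points the 28 solute carrier regions. Slc16a14 stands at the top of the plot, Slc35c1 and Slc2a9 are the other passing members, and the 3 higher members lie at the right near the bottom.

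Slc16a14 (MCT14) belongs to the monocarboxylate transporter family, whose best known members carry lactate and pyruvate. Its region, on chromosome 9 from 92238061 to 92238202 in transcript NM_001108229, had a deposited length of 141 bp. It was ranked first by p of all 1967 regions and second by fold of the lower ones, with a fold of 202.4, a log2 value of -7.66, a p of 4.33e-12 and an FDR of 3.75e-08 per the authors' deposited table. The fold is that of 40 implied vector reads against 0 implied overexpression reads. With 3 overexpression reads in place of the 0, and without the constant of 0.1 that the deposited fold holds, the weighted fold became 54.5. The unweighted ratio of reads became 13.3. The next larger pair of reads that gives the same fold is 141 against 2, so the 0 is the reading with the fewest reads and not the only one. The other listed gene of this family, Slc16a13 (MCT13), stood at the opposite end of the support. Its region on chromosome 10 from 56571906 to 56571960 had 4 implied vector reads against 0, with a fold of 21.1 and an FDR of 0.248 per the authors' deposited table, and did not pass. RefSeq has 14 protein-coding genes of the Slc16 family, so 12 of them had no listed region.

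Slc35c1 encodes the Golgi transporter of GDP-fucose, the donor for the fucose on glycoproteins. The region lay on chromosome 3 from 88066461 to 88066840 in transcript NM_001107748, and its 379 bp is the longest length found among the members. The authors' deposited table gave it a fold of 13.4 (log2 value -3.74), a p of 1.05e-07 and an FDR of 6.00e-05, which placed it 19th of all regions by p. Here both conditions had reads, 32 implied in vector and 9 in overexpression, a ratio of reads of 3.56. Slc35a2, the Golgi UDP-galactose transporter, was listed on chromosome X from 16242842 to 16242948 with 7 implied vector reads against 0, a fold of 36.3 and an FDR of 0.112 per the authors' deposited table. Slc35f3, placed in the same family by sequence and described as a thiamine transporter, was listed on chromosome 19 from 69985581 to 69985675 with 6 implied vector reads against 0 and an FDR of 0.159 per the authors' deposited table. The 3 regions of this family were all lower, and Slc35c1 alone passed.

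Slc2a9 (GLUT9) belongs to the facilitative glucose transporters and is known as a urate transporter. Its region on chromosome 14 from 77173141 to 77173520, in transcript NM_001191551, was also 379 bp long. Its fold of 16.3 (log2 value -4.02) came with a p of 0.000144 and an FDR of 0.0158 per the authors' deposited table. Behind it stood 15 implied reads in vector and 3 in overexpression, 5 times as many. Slc2a9 thus passed with the largest FDR of the 3. At an FDR under 0.01 it no longer passed, while Slc16a14 and Slc35c1 did, where 4.78% of all deposited regions were lower and passed and 0.915% were higher and passed. No other Slc2 gene was listed. In the same substrate class, Slc5a3 (SMIT1), the sodium-coupled importer of the osmolyte myo-inositol, had a lower region on chromosome 11 from 35836661 to 35836714. Its 8 implied vector reads against 0 gave a fold of 41.1 and an FDR of 0.11 per the authors' deposited table.

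The members closest to the threshold on its other side included Slc25a44 and Slc30a9. The authors' deposited table gave an FDR of 0.0592 for the larger fold of Slc25a44 and of 0.0787 for Slc30a9. Among all deposited lower regions with an implied 0, those that passed had at least 10 implied vector reads and those that did not had at most 10. Apart from Slc16a14, every lower member with an implied 0 had 9 or fewer.

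**Figure D2:**
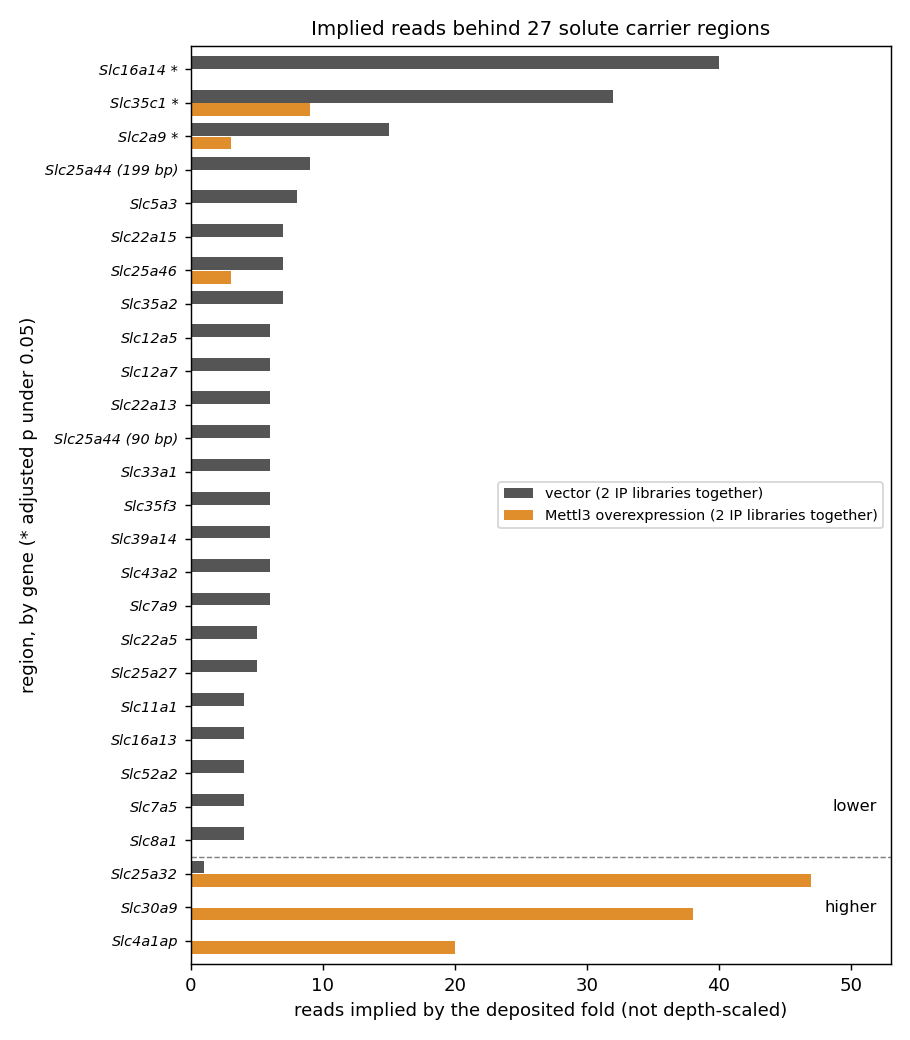
Bars give the reads implied by the deposited fold of each of 27 solute carrier regions (x axis, a count over 2 IP libraries that is not scaled for depth), in vector (grey) and Mettl3 overexpression (orange); an asterisk marks an adjusted p under 0.05. Slc16a14 with 40, Slc35c1 with 32 and Slc2a9 with 15 vector reads stand above the other lower regions, which have 4 to 9, and the 3 higher regions have 20 to 47 overexpression reads.

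Transporters of inorganic ions had 4 lower regions, none of which passed. Slc8a1 (NCX1), the sodium/calcium exchanger, was listed on chromosome 6 from 4240162 to 4240240 with 4 implied vector reads against 0, a fold of 21.1 and an FDR of 0.248 per the authors' deposited table. The potassium-chloride cotransporters Slc12a7 (KCC4) and Slc12a5 (KCC2, known from neurons) each had 6 implied vector reads against 0. Their folds were 31.3 and 31.1, and the FDR was 0.159 for each per the authors' deposited table. The 4 reads of Slc8a1 are the fewest that any listed lower member had.

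Amino acid carriers had 3 lower regions, and none of them passed. Slc7a5 (LAT1), the light chain that exchanges leucine and other large neutral amino acids, had 4 implied vector reads against 0, with a fold of 21.1 and an FDR of 0.248 per the authors' deposited table. The region lay on chromosome 19 from 65441043 to 65441140. Slc43a2 (LAT4), a carrier of the same substrates that needs no partner chain, and Slc7a9, the light chain of the cystine transporter of kidney and gut, each had 6 implied vector reads against 0. For both the FDR was 0.159 per the authors' deposited table. RefSeq has 79 protein-coding genes under current symbols in this class, and 3 had a region listed under a solute carrier name. LOC688389, which GRCr8 now names Slc7a12l1, also had a listed lower region and is not among these 3. None of the 11 Slc38 and 7 Slc1 genes was listed.

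Mitochondrial carriers had the most regions of any class, 5 in 4 of 53 RefSeq genes, with 4 lower and 1 higher. Slc25a44, which carries branched-chain amino acids into mitochondria, was the only member with more than 1 region, and both were lower. The first lay on chromosome 2 from 207185081 to 207185280, with 9 implied vector reads against 0, a fold of 46.3, a p of 0.00111 and an FDR of 0.0592 per the authors' deposited table. The second began after a gap of 3840 bp, from 207189121 to 207189211, with 6 implied vector reads against 0, a fold of 31.3 and an FDR of 0.159 per the authors' deposited table. Slc25a27 (UCP4), of the uncoupling protein group, had 5 implied vector reads against 0, with a fold of 26.1 and an FDR of 0.217 per the authors' deposited table. Slc25a46, an outer membrane protein that acts in mitochondrial fusion and fission, was listed with a region of only 10 bp. It had 7 implied vector reads against 3 overexpression reads, with a fold of 7.74 and an FDR of 0.233 per the authors' deposited table, the smallest fold of all members. Slc25a32, the mitochondrial folate and FAD carrier, went the other way. Its region on chromosome 7 from 78244519 to 78244700 was higher, with 47 implied overexpression reads against 1 vector read, a fold of 9.8 and an FDR of 0.217 per the authors' deposited table. The next pair that gives this fold is 330 against 8. None of the 5 regions passed, and the difference in direction among these genes was not tested.

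Carriers of trace metals were also listed in both directions. Slc30a9, a member of the zinc efflux family that has also been described as a nuclear receptor coactivator, had a higher region on chromosome 14 from 42286840 to 42286923. There were 38 implied overexpression reads against 0 vector reads, with a fold of 47.7, a p of 0.00175 and an FDR of 0.0787 per the authors' deposited table. With 3 vector reads in place of the 0 and without the added constant, the weighted fold became 3.10 and the unweighted ratio of reads 12.7. Slc39a14 (ZIP14), an importer of zinc, iron and manganese, had a lower region on chromosome 15 from 55713506 to 55713680 with 6 implied vector reads against 0 and an FDR of 0.159 per the authors' deposited table. Slc11a1 (NRAMP1), the divalent metal transporter known from the vesicles of phagocytes, had 4 implied vector reads against 0 and an FDR of 0.248 per the authors' deposited table. The leukocyte markers Ptprc, Cd68, Cd14 and Csf1r had no listed region, and the source of the Slc11a1 reads was not tested.

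Carriers of organic ions and vitamins had 4 lower regions and none that passed. Slc22a15, an organic ion transporter, had the largest fold of them, 36.3, from 7 implied vector reads against 0, with an FDR of 0.112 per the authors' deposited table. Slc22a5 (OCTN2), the carnitine transporter, had 5 implied vector reads against 0 and an FDR of 0.217 per the authors' deposited table. That fold is also given by 18 vector reads against 2, fewer reads than the next pair of any other member shown. By the fold alone its implied 0 is thus less certain. Its p was 0.0215 in the authors' deposited table, as was that of Slc25a27 with 5 implied vector reads against 0. Slc2a9, with 15 against 3, had a p of 0.000144 there. Slc52a2, a riboflavin transporter, had 4 such reads and an FDR of 0.248 per the authors' deposited table. Slc22a13, an organic anion transporter, was listed on chromosome 8 from 127094090 to 127094305 with 6 implied vector reads against 0, a fold of 31.3 and a p of 0.0115 in the authors' deposited table. A region with the same length of 215 bp, the same fold and the same p was listed 22740 bp away for LOC685081, which GRCr8 now names Slc22a13l1. Whether the same reads were counted for both genes was not tested, so the value of Slc22a13 is uncertain. Slc33a1, the acetyl-CoA transporter of the endoplasmic reticulum, was the only listed member of the lipid, choline and acetyl-CoA class, with 6 implied vector reads against 0 and an FDR of 0.159 per the authors' deposited table.

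**Figure D3:**
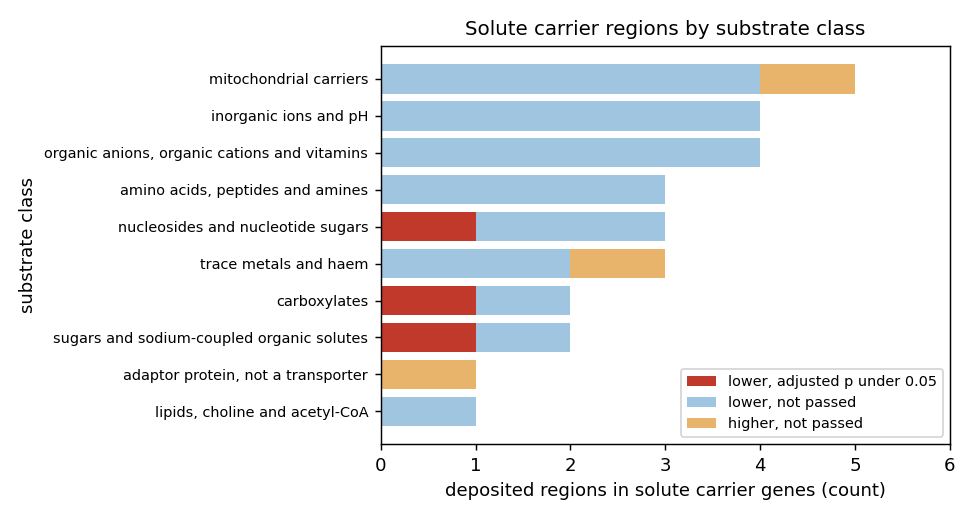
Bars count the 28 deposited solute carrier regions by substrate class (x axis), split into lower regions with an adjusted p under 0.05, other lower regions and higher regions. The 3 passing regions stand in 3 classes, and the 3 higher ones are a mitochondrial carrier, a trace metal carrier and the adaptor Slc4a1ap.

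Slc4a1ap had the third of the higher regions, on chromosome 6 from 36055579 to 36055600, 21 bp long. There were 20 implied overexpression reads against 0 in vector, with a fold of 25.6 and an FDR of 0.248 per the authors' deposited table. With 3 vector reads in place of the 0 and without the added constant, the weighted fold became 1.63 and the unweighted ratio of reads 6.67. Which of these ratios is nearer to the libraries' depth is unknown. None of the 3 higher members passed, and none of these genes had a lower region as well.

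Many of the folds of the members depend on an implied 0. A mean of 0 in one condition, with a constant of 0.1 added to both means, was implied for 22 of the 25 lower regions and 2 of the 3 higher ones. For all deposited lower regions this share was 82.7%, beside 88% of the lower members. The median fold of the lower members was 31.1 in the authors' deposited table, where that of all lower regions was 26.2. With 3 reads in place of each implied 0, and the constant left out of those folds, the members' median was 8.18. By reads alone, without the weights but also with these 3 reads, it was 2. The same quantities over all lower regions were 7.15 and 2. The number of vector reads had a median of 6 in the lower members and in all lower regions alike. Of the 25 lower members, 5 had 4 implied vector reads against 0 and 9 had 6. Slc7a5, Slc8a1, Slc11a1 and Slc16a13 shared the fold of 21.1 and the p of 0.0402 in the authors' deposited table, so these genes are not ranked among each other.

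**Figure D4:**
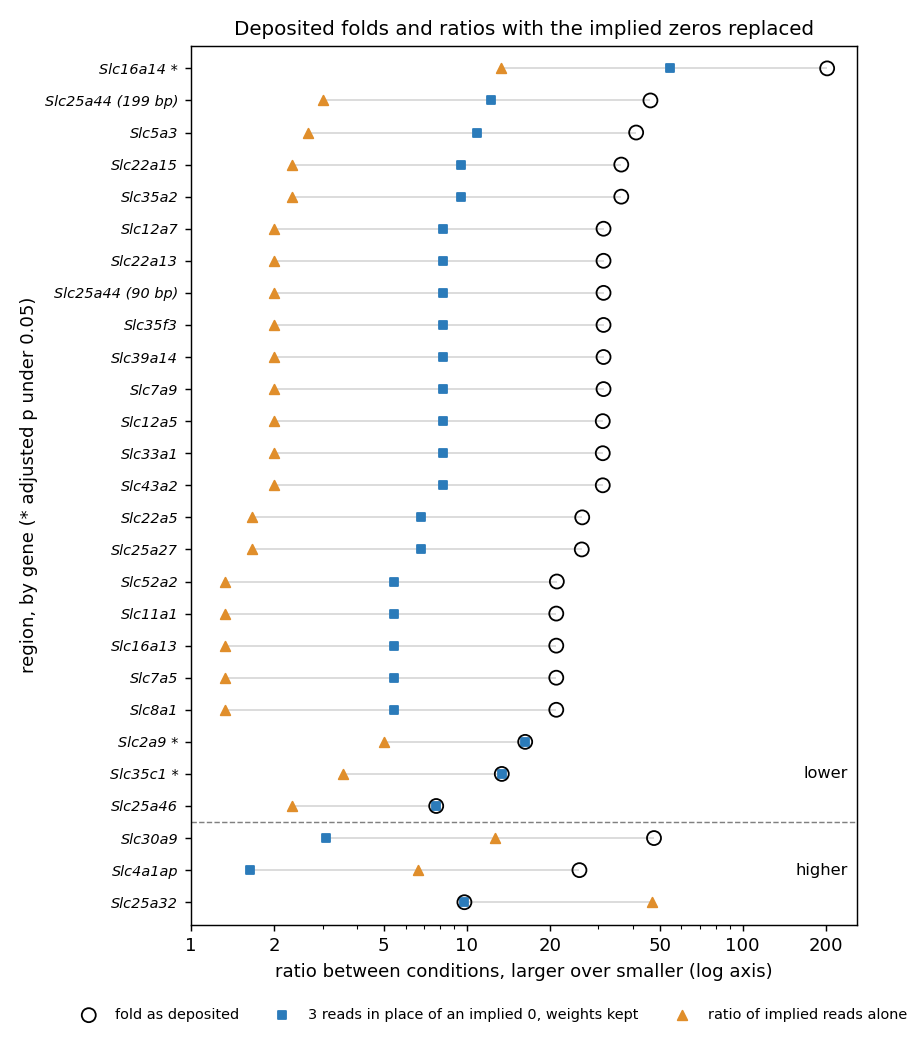
For each of 27 solute carrier regions, the x axis (log scale) shows the ratio between conditions, larger over smaller. Open circles show it as deposited, and blue squares under the same weights with implied zeros set to 3 reads. Orange triangles show the ratio of implied reads without the weights, also with implied zeros set to 3 reads. Slc16a14 goes from 202.4 to 54.5 and 13.3, while Slc35c1 and Slc2a9, which have reads in both conditions, keep their folds of 13.4 and 16.3 under the weights and have ratios of reads of 3.56 and 5.

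The deposited lengths of the 28 regions ran from 10 to 379 bp, and the lower ones had a median of 170 bp beside 132 bp for all lower regions. Of the 26 member genes with a cellular component annotation in the tables, 15 were annotated to the plasma membrane, 7 to mitochondria and 4 to the Golgi, where a gene may have several. A KEGG pathway was given for 9 of the 27 genes and for none of the 3 that passed. RefSeq GRCr8 has 397 protein-coding genes under current Slc and Slco symbols. The 27 members, taken by deposited name, give a share of 6.80%. This leaves out 3 genes with a listed region that only GRCr8 names as solute carriers. Of all its 23154 protein-coding genes, matched by gene ID, 6.82% had a listed region. The 2 shares are thus not counted alike. Genes that the cells do not express count in both shares. Class shares also counted members by deposited name. They went from 3.80% of RefSeq genes for amino acids, peptides and amines to 10.5% for carboxylates, which rests on 2 of 19 genes.

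Other genes of solute transport were taken from a list of 50 pumps, ABC transporters, chaperones and regulators of solute carriers. Of these, 6 had a listed region, all lower, and none passed, while 44 had none. Over all deposited regions 86.9% were lower, and 13.0% of the lower ones passed. A region was listed for 6.82% of all RefSeq protein-coding genes. The list of 50 genes was not tested against these shares. Abca1, the cholesterol efflux transporter, had the largest fold of the 6 listed genes, 46.4, from 9 implied vector reads against 0. Its FDR was 0.0787 per the authors' deposited table. Abcb1a, a drug efflux pump, had 8 implied vector reads against 0 and the same FDR of 0.0787 per the authors' deposited table. Abcc1 and Abcc5, exporters of organic anion conjugates and nucleotides, had 4 implied vector reads each against 0, and Atp6v0a2, a subunit of the vacuolar proton pump, had 7 against 0. Sgk1, a kinase that raises the activity of several solute carriers and is named in the series title, had a lower region. It had 11 implied vector reads against 8 overexpression reads, where a vector read weighs 4.09 times an overexpression read. The fold was 5.21 and the FDR 0.177 per the authors' deposited table. The sodium pump subunits and the monocarboxylate transporter chaperones Bsg and Emb were not listed.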

How the data were processed

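MeRIP-seq compared m6A IP RNA of Mettl3-overexpressing and vector rat vascular smooth muscle cells (8 libraries in 4 groups of 2). The submitters' processing notes name Trimmomatic 0.36. Region names begin with diffreps; the aligner, genome build, test and use of input were not given in the sources used here. The authors deposited, per the file headers, a fold (a ratio, direction in another column, smallest 4), a p-value, an adjusted p-value (FDR) and a score, which equals the −log10 of the p-value, for each region. No value per library was used, so depth is unknown and p-values may measure technical spread only. The test was planned as counts of the authors' calls in that case. Coordinates are as deposited, in a build other than GRCr8, whose table served for names and counts only. The file headers call them BED, with starts 1 base low, but 845 of 1967 starts lie 1 above a multiple of 20 and 910 ends on one, as in windows counted from 1; a start may thus be 1 base off. Regions' sequences, input RNA and positions within transcripts were not analysed here. One member region counts in all totals and its own result is not reported here.

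Members passed at the authors' adjusted p under 0.05. Implied reads were the pair with the fewest reads in the condition with the lower mean whose means, rounded to 2 decimals with 0.1 added, give the fold. One read weighed 0.503 in vector and 0.123 in overexpression. Weighted folds with 3 reads in place of an implied 0 left out the 0.1, while folds without an implied 0 kept it. Implied means under 6 lay within 0.015 of a multiple in 97.1% and 96.7% of single-decimal folds (tolerance 1e-06), where chance gives 5.96% and 24.4%. Each weight was the one, among many tried on these same folds, with the largest excess over chance. The chance values hold for a weight fixed in advance, so the match is not independent support. The step was tested on data simulated with the same constant and rounding and nearly the same weights. That test cannot show that the deposited folds were made in this way. Named were the passing members, those with several regions, the 5 largest and 3 smallest folds per direction, up to 4 per class by p, and listed genes of other solute transport. The members, lists and tests were chosen with earlier results of these data known. Software was Python 3.11.15, pandas 2.3.3 and numpy 2.4.6.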

Additional observations from a re-analysis of the deposited data

How the results depend on the processing

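At an adjusted p under 0.01, 2 lower members passed, and without folds that imply a 0, 2 did. Counting genes, Slc families alone, and leaving out regions under 50 bp or under 10 implied reads left 3 lower and 0 higher passing regions. So did adding the 3 renamed rows or leaving out Slc22a13, both chosen after seeing the data. None of these settings could change the counts. The passing regions, in 3 genes, were 141 to 379 bp long with 15 to 40 implied vector reads. No Slco gene was listed, and neither Slc22a13 nor a renamed row had passed. Taking all deposited regions gave 25 lower and 3 higher members, 10 classes in place of 3, and 6 regions of other solute transport genes in place of 0; this drops the adjustment by construction. The median fold of the lower members went from 31.1 to 8.18 with 3 reads in place of an implied 0 and to 2 by reads alone. That of the higher members went from 25.6 to 3.10 and to 12.7. Both settings put 3 reads in place of an implied 0 and left the added constant out of those folds. The second also dropped the weights, and the constant throughout. Singly, 24 of the 28 folds moved by over 1.5 times with 3 reads in place of an implied 0, and all 28 did by reads alone. These 24 are the regions with an implied 0, the only ones that the first setting could change. The second drops weights that differ 4.09 times, so it changes folds by construction. All 3 Mettl3 regions passed at an adjusted p under 0.01 too, a setting chosen after seeing the data. No paired analysis was possible because only comparison values, not libraries, were at hand; leaving out a library was not run either. Depth is unknown, and most lower members rest on 4 to 9 implied reads.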

Other observations

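Beyond the rule, 3 lower regions belong to genes that GRCr8 now names as solute carriers, and none passed. Pqlc1, now Slc66a2, had a 17 bp region with a fold of 21.1 and an FDR of 0.248 per the authors' deposited table. LOC688389, now Slc7a12l1, had a 379 bp region with a fold of 26.2 and an FDR of 0.217 per the authors' deposited table. LOC685081, now Slc22a13l1, is the gene whose region equals that of Slc22a13 in length, fold and p; its adjusted p was 0.159 in the authors' deposited table. Of the 28 solute carrier regions, 9 had both edges on a 20 bp grid (32.1%, beside 21.7% of all deposited regions), and all 3 passing ones but that of Slc16a14 were among these 9.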
